A study of Mus musculus with 2 samples.

Results

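The 8 loci described here encode mouse enzymes that write or erase DNA methylation and a protein that guides them: Dnmt1, Dnmt3a, Dnmt3b, Uhrf1, Tet1, Tet2, Tet3 and Tdg. The loci were chosen with earlier results of these data known. Their members were all non-control probes of the tiling array whose start in the mm9 genome lay in a fixed window around each gene. This gave 99 of the array's 174638 genomic probes, in 12 of its 22170 tiled regions. A tiled region is a run of probes whose starts lie less than 1000 bp apart. The windows measured from 27 kb at Uhrf1 to 115 kb at Dnmt3a, and only these 12 short stretches within them carried probes.

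The study compared 2 cultures of mouse embryonic fibroblasts (MEFs), primary connective tissue cells, from C57BL/6 embryos at day E14.5. No genotype other than the strain was named. In both groups, cells bearing CD45, CD41, CD31 or c-Kit, which include blood progenitors, had been removed with magnetic beads, and the rest were plated on mitomycin-treated MEF feeders. The untreated group received medium without thymidine. The thymidine group received 100 µM thymidine, a deoxynucleoside, for 2 days, and its source label also names a sort for CD45, a blood cell surface protein. Whether feeder DNA was present in either sample is not stated in the labels. DNA measurements cannot check the cell type against expressed markers. Sheared DNA of 200 to 1000 bp was precipitated with an antibody to 5-methylcytosine, labelled with Cy5, and hybridised with Cy3-labelled input DNA (MeDIP-chip). For the treated array 1 label calls the input plain MEFs and another gives thymidine as its agent, so its origin is not settled. Each group had 1 array. There are thus no replicates, no test was run, and all values describe these 2 arrays.

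DNA methylation in mammals is the addition of a methyl group to cytosine, mostly at CpG dinucleotides. Dnmt3a and Dnmt3b place new marks, and Dnmt1, brought to newly replicated DNA by Uhrf1, copies them to the daughter strand. Tet1, Tet2 and Tet3 oxidise 5-methylcytosine, and Tdg, thymine DNA glycosylase, excises oxidised forms as well as mismatched thymine so that repair can restore cytosine. The promoters of such widely used genes commonly lie in CpG islands, which are mostly unmethylated in somatic cells. Pull-down by the antibody depends on the density of methylated CpGs, so a ratio is not a percentage of methylation.

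The promoter letters of the 8 genes are shown first because CpG density bears on what the antibody can capture. RefSeq (GRCm38.p6) listed 13 start sites for the 8 genes, and all 8 symbols matched. In the 250 bases upstream of these starts the number of CG dinucleotides ran from 2, at a Dnmt1 start, to 51 at Tet2. Of the 13 starts, 12 had more than the median of 6 over 32851 promoters. At least 1 CG was present in 92.1% of all these promoters. These positions are of another build than the array (mm9) and were not converted, so where the probes lie relative to these letters was not determined. The upstream sequences of the locus with the largest region difference (Tet2), the locus with the highest level (Dnmt3b) and those with the lowest levels (Tet1 and Tet3) are printed 5′ to 3′ on the gene's strand, with each CG in capitals.
Tet2, chr3:133544391-133544640, minus strand: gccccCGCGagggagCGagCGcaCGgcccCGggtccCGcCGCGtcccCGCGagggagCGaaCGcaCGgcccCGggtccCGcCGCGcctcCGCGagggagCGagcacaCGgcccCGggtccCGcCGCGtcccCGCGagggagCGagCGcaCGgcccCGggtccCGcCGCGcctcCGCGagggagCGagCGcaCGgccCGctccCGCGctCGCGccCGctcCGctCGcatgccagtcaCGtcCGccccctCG
Dnmt3b, chr2:153649199-153649448, plus strand: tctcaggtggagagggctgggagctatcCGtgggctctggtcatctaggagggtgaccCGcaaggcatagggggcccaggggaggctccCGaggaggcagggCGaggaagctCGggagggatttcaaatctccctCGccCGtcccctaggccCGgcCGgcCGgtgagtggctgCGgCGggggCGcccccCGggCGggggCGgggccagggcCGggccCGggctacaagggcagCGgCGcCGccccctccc
Tet1, chr10:62887325-62887574, minus strand: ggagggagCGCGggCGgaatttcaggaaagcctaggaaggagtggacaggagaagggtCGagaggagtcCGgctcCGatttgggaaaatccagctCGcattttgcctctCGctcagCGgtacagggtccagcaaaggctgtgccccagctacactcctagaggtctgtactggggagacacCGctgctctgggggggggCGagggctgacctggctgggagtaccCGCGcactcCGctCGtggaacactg
Tet3, chr6:83441679-83441928, minus strand: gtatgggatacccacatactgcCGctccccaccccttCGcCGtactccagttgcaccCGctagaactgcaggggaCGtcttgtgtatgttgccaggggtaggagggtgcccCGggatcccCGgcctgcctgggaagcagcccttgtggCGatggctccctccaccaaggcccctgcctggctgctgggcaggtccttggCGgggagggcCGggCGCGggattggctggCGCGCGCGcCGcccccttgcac
Tet2 held 51 CGs at a G+C content of 83.6%, and only 0.067% of promoters held as many. Part of this sequence was repetitive. Its most frequent run of 12 bases, CCGCGAGGGAGC (the first in position of those tied), occurred 5 times on the gene's strand. Searched on both strands after the Tet2 sequence was seen, it occurred in 1 of the 32851 promoters (0.00304%), that of Tet2. Dnmt3b held 21 CGs, a number that 16.3% of promoters reached. Tet3 held 17 and Tet1 15, reached by 23.5% and 27.3% of promoters. Among the genes not printed, Dnmt3a had 38, 40 and 15 CGs at its 3 listed starts, Dnmt1 had 2, 7 and 26, Uhrf1 had 10 and 30, and Tdg had 19. A count of CGs says nothing of whether they were methylated.

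In every locus at least 1 tiled region was centred within the first 20.5% of the window, read in the direction in which RefSeq transcribes the gene. Tet1, Tet2, Tet3, Dnmt3b and Tdg had that single region. Dnmt1 had both its regions there, region 2 the further upstream, Dnmt3a had 2 more regions, at 51.8% and 76.7% of its window, and Uhrf1 had a second at 96.0%, the end facing its neighbour Kdm4b. No annotation of mm9 was used, so a region is not assigned to a promoter, exon or intron, and the second regions of Dnmt1 and Uhrf1 may belong to a neighbouring gene. Dnmt1 has 3 listed starts, so its region 2 may instead lie at an upstream start of its own. The RefSeq neighbour of Dnmt1 on its upstream side is S1pr2. In RefSeq, Glt8d2 overlaps Tdg. Other genes of the pathway were not located here.

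The measured quantity is the log2 ratio of precipitate (Cy5) to input (Cy3), centred on the median of the kept probes of each array. A level is this ratio on 1 array, and a difference is thymidine minus untreated. A probe was kept if each array's input signal was well above its background, which held for 88 of the 99. The 11 others were dim in the input, in 6 of the 8 loci, and are shown only where named. Among the 88, 84 were well above background in both channels of both arrays. The loci were brighter than the array as a whole, with 88.9% of their probes well above background in the untreated precipitate, against 70.3% of all probes. In the treated precipitate the shares were 86.9% and 69.2%. The SD among replicate spots of control probes on the same array was 0.14 for a difference, over 14 probes with 168 spots. It covers spot noise only. The mean difference of each control probe over its spots ran from -0.424 to 0.625. A difference above 0.14 but inside this range is thus not beyond what control probes showed.

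Dnmt1, Dnmt3a, Dnmt3b, Uhrf1, Tet2 and Tdg had levels slightly above the array's median, and Tet1 and Tet3 lay below it on both arrays. The median level over the 88 kept probes was 0.17 in untreated and 0.24 in treated cells, where the median of all kept probes is 0 by construction. The order of loci by the median over probes of the mean of both arrays was Dnmt3b (0.43), Tet2 (0.34), Tdg (0.21), Uhrf1 (0.19), Dnmt3a (0.17), Dnmt1 (0.14), Tet1 (-0.22) and Tet3 (-0.28). No neighbours in this order were further apart than the spread over their probes in untreated cells, which ran from an SD of 0.32 at Tet2 to 0.87 at Tdg. Of the 12 regions 8 had a mean level above 0, and 50.7% of all 21518 measured regions did. Probes with a level of 1 or more, which is 2-fold above the array's median, numbered 11 of 88 without and 11 of 88 with thymidine. Over all probes the share was 7.17% and 7.60%. On both arrays 8 probes in 5 loci were at 1 or more, against 5.15% of all probes. Levels of -1 or less were found at 4 and 3 probes, with 15.0% and 11.3% of all probes there.

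**Figure D1:**
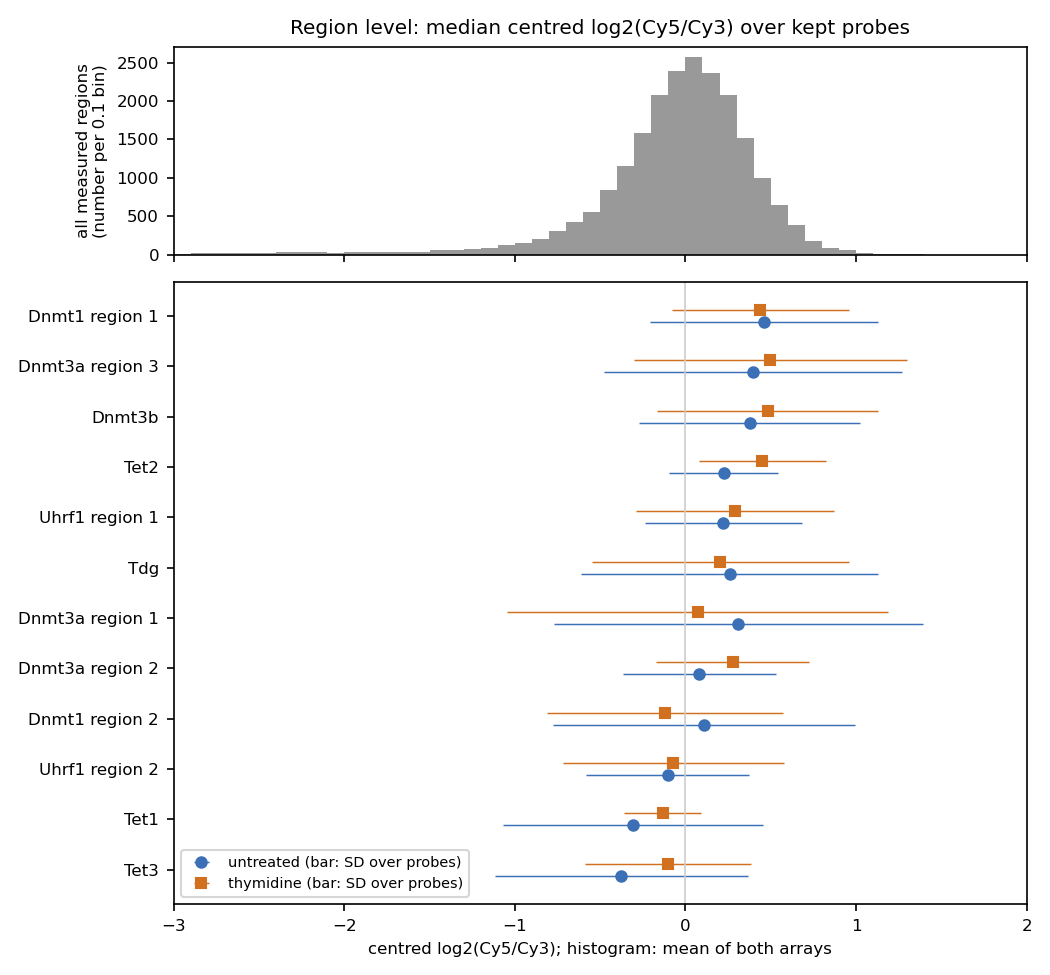
Levels of the 12 tiled regions on both arrays (x axis, centred log2 ratio of precipitate to input; points are medians over kept probes, bars the SD over probes), ordered by the mean of both arrays, below a histogram of that mean over all 21518 measured regions (y axis, number of regions). All 12 regions lie in the central body of the histogram, from -0.24 at Tet3 to 0.45 at Dnmt1 region 1, and the bars of neighbouring regions overlap.

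After thymidine, none of the 12 regions passed the size rule used for the array, a median of 0.5 or more, or -0.5 or less, with 80% or more of the probes on that side of 0. Over all measured regions 0.706% passed as higher and 0.0558% as lower, and 0 of 12 does not stand apart from such shares. With quantile normalisation the whole array gave 15 higher and 36 lower regions in place of 152 and 12, and none of the 12 was among them. The median difference over the 88 probes was 0.11, against 0.07 over all kept probes, and 57 of the 88 were above 0, where 57.5% of all probes were. No kept probe reached a difference of 1 in either direction, a size reached by 1.07% of all probes as higher and 0.0926% as lower. The median was above 0 in 9 of the 12 regions, where 65.1% of all measured regions were. Region medians ran from -0.05 at Dnmt1 region 2 to 0.36 at Tet2. Over all measured regions the 5th percentile was -0.21 and the 95th was 0.35. The 2 arrays correlated at 0.89 across the 88 probes, which share the same 2 hybridisations and, within a region, overlapping fragments.

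**Figure D2:**
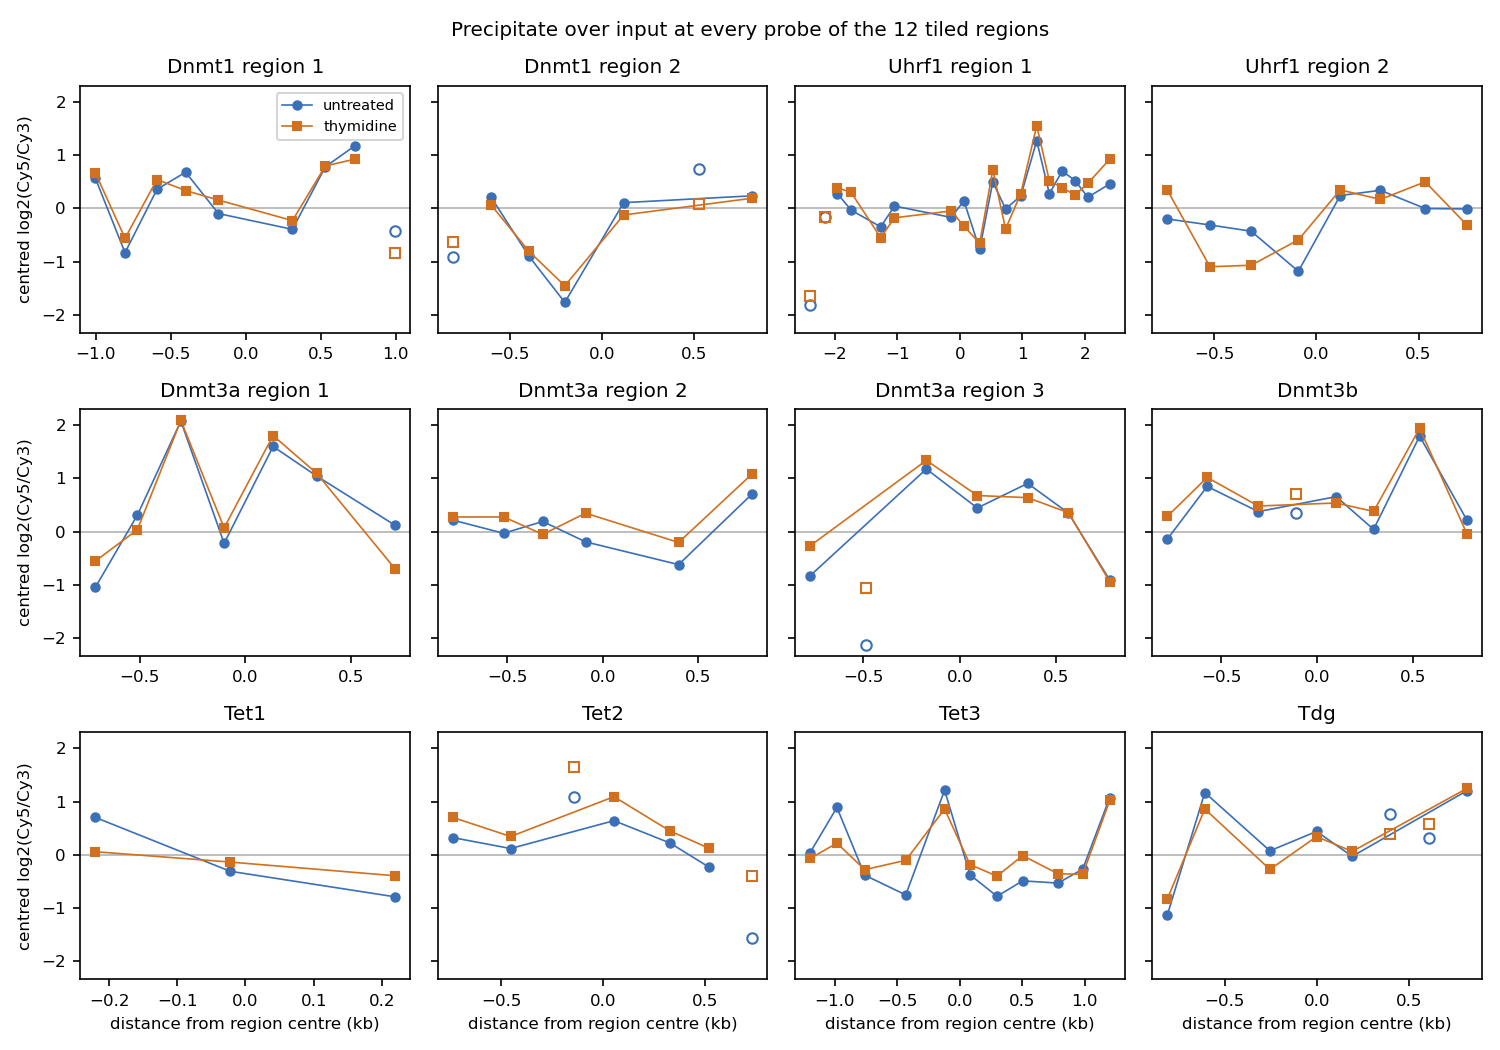
Centred log2 ratio of precipitate to input (y axis) at each of the 99 probes of the 12 regions, against the distance from the region's centre in kb (x axis). Circles are untreated and squares thymidine-treated cells, filled and joined for kept probes and open for those with dim input. Tet2 has all 5 kept squares above the circles, and the highest points, in Dnmt3a region 1 and Dnmt3b, are high on both arrays.

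Dnmt1, the maintenance methyltransferase, had 13 kept probes in 2 regions of chromosome 9. Region 1 (20756638 to 20758687) had a median level of 0.46 (SD 0.67 over 8 probes) in untreated and 0.44 (SD 0.52) in treated cells. This was the highest mean level of the 12 regions, at the 91.5th percentile of all measured regions. Its probe levels ran from -0.83 to 1.18 in untreated and from -0.56 to 0.93 in treated cells, each a range over different positions. Its median difference was 0.13 (SD 0.23), with 6 probes higher and 2 lower. The probe at 20758368, with the highest level of the locus, read 1.18 in untreated and 0.93 in treated cells. Region 2 (20763910 to 20765586) had median levels of 0.11 (SD 0.89 over 5 probes) and -0.12 (SD 0.69), and a median difference of -0.05. Its probe at 20764525 was the only one of the 88 kept probes at -1 or less on both arrays, at -1.76 and -1.45. Its precipitate was not well above background, so these levels are uncertain.

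Uhrf1, which binds hemimethylated CpGs and recruits Dnmt1, had 24 kept probes on chromosome 17. Region 1 (56439210 to 56444046), the longest of the 12 at 4837 bp, had median levels of 0.22 (SD 0.46 over 16 probes) and 0.29 (SD 0.58). Its median difference was 0.11 (SD 0.29), with 10 probes higher and 6 lower. The probe at 56442836 stood above its neighbours on both arrays, at 1.27 in untreated and 1.56 in treated cells, the 98.0th percentile of all probes by mean ratio. The probes on either side of it read 0.23 and 0.28 at 56442581, and 0.28 and 0.52 at 56443038.

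Region 2 of Uhrf1 (56464173 to 56465692) lay near the array's median, at -0.10 and -0.07, but its 8 probes differed in opposite directions. The adjacent probes at 56464387 and 56464591 read -0.31 and -0.43 in untreated cells and -1.09 and -1.07 in treated cells. On either side of them the order was opposite, with -1.18 in untreated and -0.59 in treated cells at 56464822, and -0.20 and 0.34 at 56464173. The median difference was -0.03, with an SD of 0.54 over probes, above the 0.32 that was the median of this SD over all regions. The precipitate at 56464387 was not well above background in treated cells, and no probe of this region differed by more than 2 of the scanner software's errors.

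Dnmt3a, one of the 2 de novo methyltransferases, held the highest single levels of the 8 loci. In region 1 on chromosome 12 (3805687 to 3807152) the probe at 3806093 read 2.08 in untreated and 2.09 in treated cells, at the 99.8th percentile of all probes by mean ratio. The probe at 3806530 read 1.60 and 1.81, and that at 3806736 read 1.05 and 1.10. Between the first of these and the second, at 3806298, the levels were -0.22 and 0.07. High and low probes thus alternated within a distance that a single sheared fragment can span, and did so on both arrays. Over 7 probes the SD was 1.08 in untreated and 1.12 in treated cells, against a median SD of 0.77 over all regions in untreated cells.

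The last probe of that region, at 3807108, had the lowest difference of the 88 probes. It read 0.12 without and -0.70 with thymidine, a difference of -0.82, beyond 2 scanner errors of 0.31, and 0.381% of all probes were as low or lower. Its input channel differed by 0.69 and its precipitate channel by -0.20, after each channel was centred on its own median. The median level of region 1 was 0.31 in untreated and 0.07 in treated cells, while the median over probes of the difference was 0.05, with 5 higher and 2 lower. The sign thus depended on which median was taken. The same held for Dnmt1 region 1, Uhrf1 region 2 and the Dnmt1 locus as a whole.

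Region 2 of Dnmt3a (3861748 to 3863361) had the second highest difference of the 12. Its levels over 6 probes in order of position were 0.22, -0.03, 0.19, -0.19, -0.62 and 0.71 in untreated cells. In treated cells they were 0.28, 0.28, -0.05, 0.35, -0.20 and 1.09. The treated value was higher at 5 of these 6 probes and lower at 3862219. The median difference was 0.34 (SD 0.29), at the 94.3rd percentile of all regions. Its precipitate channel differed by 0.18 and its input by -0.07. It was 0.19 with normexp background correction and 0.10 by the authors' deposited table.

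Region 3 of Dnmt3a (3890451 to 3892048) had median levels of 0.40 (SD 0.87 over 6 probes) and 0.50 (SD 0.80). Its highest probe, at 3891054, read 1.18 and 1.34, and its lowest kept one, at 3892004, -0.91 and -0.94 with a dim precipitate. The difference had a median of 0.09. A probe with dim input at 3890738, left out, had levels of -2.12 and -1.05.

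Dnmt3b, the second de novo enzyme, had the highest locus level under the reported processing. Its single region on chromosome 2 (153473893 to 153475501) had medians of 0.38 (SD 0.65 over 7 probes) in untreated and 0.48 (SD 0.65) in treated cells. The probe at 153475210 read 1.79 and 1.94, at the 99.5th percentile of all probes, and that at 153474102 read 0.85 and 1.02. The other 5 kept probes lay between -0.14 and 0.66 in untreated cells. Its median difference was 0.15 (SD 0.24), with 5 probes higher and 2 lower, and it kept a positive sign in all 10 alternative settings, from 0.08 to 0.24.

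Tet2 was the only locus in which every kept probe was higher in treated cells. Its region on chromosome 3 (133206862 to 133208385) had untreated levels of 0.33, 0.12, 0.64, 0.22 and -0.23 in order of position. In treated cells they were 0.70, 0.35, 1.09, 0.45 and 0.12. The ranges overlapped, but each probe was higher with thymidine, by 0.23 to 0.45. The median difference was 0.36 (SD 0.10 over 5 probes), at percentile 95.2 of all regions, and 4.93% of all measured regions had every kept probe higher. No probe differed by more than 2 scanner errors. Both probes with dim input also read higher, from 1.09 to 1.65 at 133207460 and from -1.57 to -0.41 at 133208326. The input of the kept probes differed by -0.20 and the precipitate by 0.11, each a median. The same median was 0.18 under normexp, 0.19 by the authors' deposited table and 0.11 for the precipitate channel without the input. Its sign was positive in all 10 settings.

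Tet1 had the least coverage, with 3 probes over 485 bp of chromosome 10 (62342278 to 62342762). They read 0.70, -0.31 and -0.79 in untreated and 0.06, -0.13 and -0.39 in treated cells. The treated levels spanned less, with an SD of 0.23 against 0.76. The probe at 62342278 was lower by more than 2 scanner errors (difference -0.64, error 0.30), with an input difference of 0.47 and a precipitate difference of -0.25. The other two were higher, so the median of 0.17 rests on 3 probes that disagreed in sign.

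Tet3, on chromosome 6 (83390456 to 83392899), had the lowest locus level by the mean of both arrays. Its medians were -0.38 (SD 0.74 over 11 probes) in untreated and -0.10 (SD 0.49) in treated cells. By the treated array alone Tet1 was lower, at -0.13. All probes of Tet3 were measured in both channels. The probes at 83391533 and 83392855 had the highest levels on both arrays, at 1.22 and 0.86 for the first and 1.08 and 1.02 for the second. Here 2 probes differed by more than 2 scanner errors, in opposite directions. At 83390671 the level was 0.89 in untreated and 0.22 in treated cells, and at 83391222 it was -0.75 and -0.10. Their input channels differed by 0.71 and -0.59, and their precipitate channels by -0.03 and -0.01. The median difference of the region was 0.10 (SD 0.38), with 6 probes higher and 5 lower, and by the authors' deposited table it was -0.19.

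Tdg, which acts after the Tet enzymes, had the only negative locus difference, -0.03 (SD 0.25 over 6 probes), with 3 probes higher and 3 lower. Its region on chromosome 10 (82091336 to 82093008) had median levels of 0.26 (SD 0.87) in untreated and 0.20 (SD 0.75) in treated cells. Levels along the region ran far apart on both arrays. The probe at 82092964 read 1.21 and 1.25, and the one at 82091541 read 1.17 and 0.86. The lowest, at 82091336, read -1.13 in untreated and -0.83 in treated cells, beside the latter probe.

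**Figure D3:**
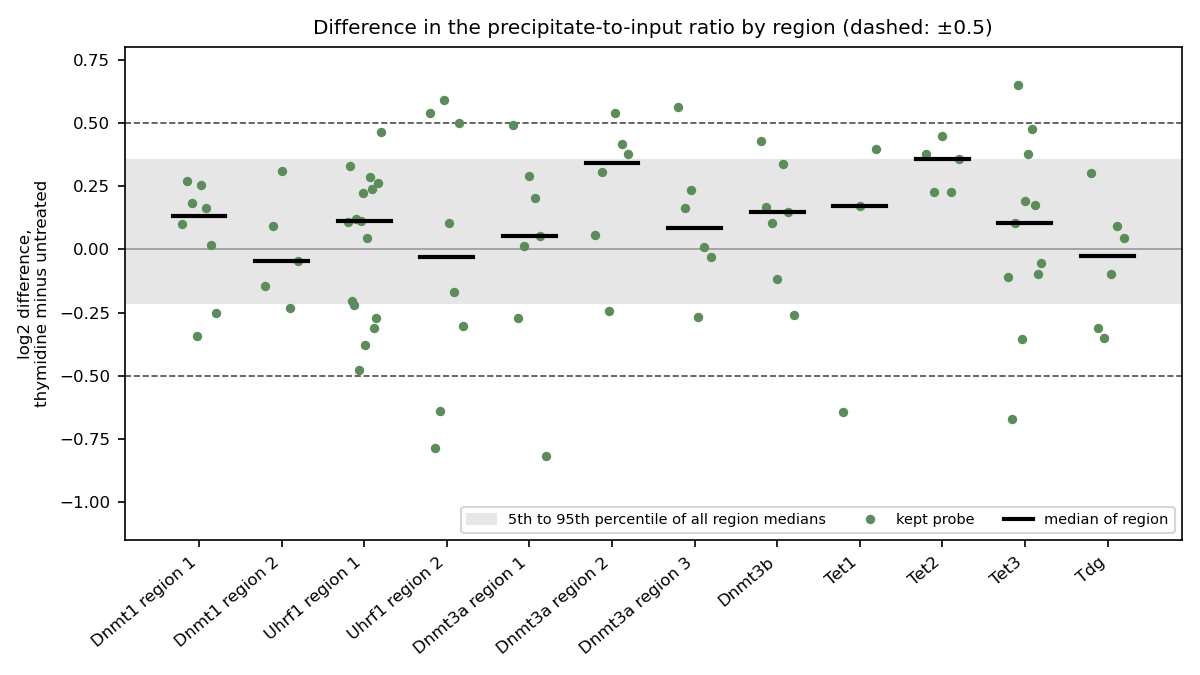
Log2 difference, thymidine minus untreated (y axis), of each kept probe (points) and region median (black lines) for the 12 regions (x axis). The grey band holds the 5th to 95th percentile of all region medians, from -0.21 to 0.35, and the dashed lines mark the size rule of 0.5. Tet2 lies at the band's upper edge, and no region median reaches a dashed line.

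Among single probes, 6 of the 88 were higher by at least 0.5 and 5 lower by at least 0.5, while 11.0% and 4.43% of all probes were. Beyond 2 scanner errors were 4 probes, in Dnmt3a, Tet1 and Tet3, where 2.95% of all probes were. Of these 4, 3 were lower after thymidine. In all 4 the input channel differed by more than the precipitate channel. The matching shares among all probes beyond 2 scanner errors were not counted, so neither count is read as particular to these loci. Over the 88 probes the input differed by more than the precipitate at 57, and over all kept probes at 62.9%. The difference of the ratio correlated at -0.87 with that of the input across the 88 probes and at -0.80 across all kept probes. The input is the denominator of the ratio, so a negative correlation arises by construction. Its part in the differences of the 8 loci was not tested.

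**Figure D4:**
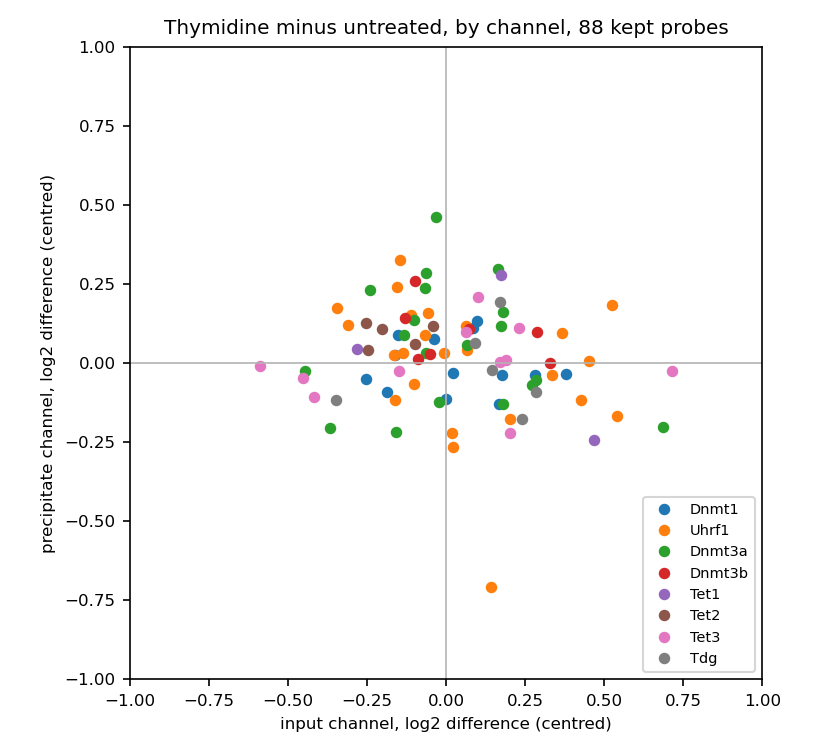
Log2 difference of the input channel (x axis) against that of the precipitate channel (y axis), thymidine minus untreated, each centred on its median over all kept probes, for the 88 kept probes coloured by locus. The 4 probes beyond 2 scanner errors lie far out along the input axis, at 0.69, 0.47, 0.71 and -0.59, while the lowest precipitate is at the Uhrf1 probe 56464387, at -0.71, and the 5 Tet2 probes all lie at lower input and higher precipitate.

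The choice of processing changed the sizes and some of the signs, but under none of the 12 alternative settings did any region of the 8 loci pass the size rule. The sign of the median difference held in all 10 settings with a value for Dnmt3a, Dnmt3b and Tet2, and turned in at least 1 of them for the other 5 loci. The locus level kept its sign in all 8 settings that give levels, except Uhrf1 in untreated and Dnmt1 in treated cells, which each turned in 1. For Dnmt1 this was the authors' deposited table, used without centring. There the treated level of Dnmt1 was -0.002, and the median of all kept probes was -0.05. The order of loci by level also changed with the setting. With loess, for example, Tdg lay above Dnmt3b in untreated cells. In the authors' deposited table the values at the 88 probes correlated with the levels used here at 0.91 in untreated and 0.90 in treated cells.

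**Figure D5:**
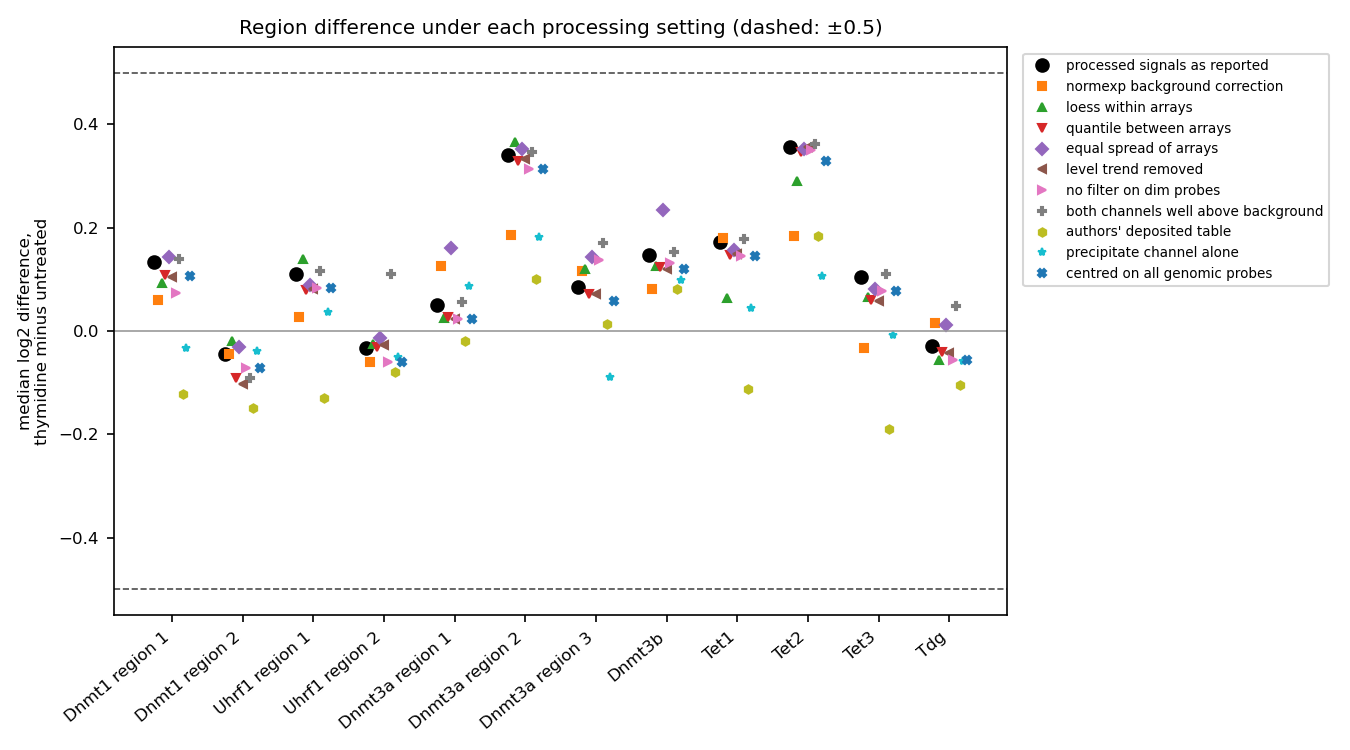
Median log2 difference of each of the 12 regions (x axis) under the reported processing (black circles) and each alternative (other symbols), with dashed lines at 0.5 and -0.5. Every symbol lies inside the dashed lines. Tet2 and Dnmt3a region 2 are above 0 in every setting shown, between 0.10 and 0.37, and Dnmt1 region 2 is below 0 in every one, between -0.15 and -0.02.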

How the data were processed

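Each sample had 1 two-colour array. The scanner software was Feature Extraction (version 11.0.1.1, Agilent) and the probe positions are of mm9, per the file headers. The deposited intensity values are processed signals, background-subtracted and dye-scaled per the file headers, and raw median signals. The deposited log10 ratios were not used, and their errors, a score given by the scanner software per the file headers, were turned to log2 units. A table of log ratios made by the authors was taken as log2 values because of its scale. How it was centred or smoothed, and its log base, stay unknown. Its column medians were -0.01 and -0.02.

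From these, log2(Cy5/Cy3) was computed and centred on each array's kept probes. Of 180465 spots 5827 were controls. Probes with an outlier mark in either channel (57) or an input not well above background on either array were left out, which kept 142569 (81.6%). No loess or quantile step was used. Regions needed 3 kept probes. The region rule was tried on differences shuffled over the array, with shifts of 1 added to some regions in either direction. Such a trial cannot show how the rule treats smaller shifts, or neighbouring probes that vary together. Alternatives used limma 3.58.1 (normexp offset 50, on median signals, since mean signals were not used here) and statsmodels 0.14.6. All 8 loci and their regions are described, with the highest and lowest probe of each locus by level and by difference, and other probes were named after their values were seen. The members and lists were chosen with earlier results of these data known. Slide, scan, the CD45 sort and the origin of the treated input cannot be told apart from the group. The number of arrays, 1 a group, limits the precision.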

Additional observations from a re-analysis of the deposited data

How the results depend on the processing

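The count of 0 regions past the size rule in either direction, of the 12 regions (13 when split at smaller gaps), held under all 12 alternatives, of which centring on all genomic probes was chosen after seeing the data. Over the whole array the counts of higher and lower regions moved from 152 and 12 to 2 and 3 with normexp, 109 and 22 with loess, 15 and 36 with quantile normalisation, 16 and 34 with the trend on level removed, 0 and 6 from the precipitate channel alone, 0 and 36 in the authors' deposited table, and 100 and 20 centred on all genomic probes. The cause was not tested. The median difference of the 8 loci was 0.11, and between 0.03 and 0.13 in 9 alternatives. In the authors' deposited table it was -0.042, where that of all kept probes was -0.05, and 36 of the 88 probes were above 0. The share of all probes above 0 in that table was not counted.

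Counts of extreme probes moved more. Probes at 1 or more numbered 11 and 11 in untreated and treated cells. They were 3 and 3 by the authors' deposited table, 4 and 4 with normexp, and 6 in treated cells with both channels well above background. Probes at -1 or less numbered 4 and 3, and were 0 and 0 both by the authors' deposited table and with normexp. In treated cells they were 0 with loess, 5 with no filter on dim probes, and 1 with both channels well above background. The normexp offset shrinks ratios by construction, and the filters change which probes are counted.

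Over these alternatives 13 of 120 region differences and 20 of 128 locus levels moved by more than the control spot SD of 0.14. No paired analysis was possible because each group has 1 array and the labels give no replicate numbers. Leaving out a replicate was likewise not possible.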
